A study of Mus musculus with 11 samples.

Results

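The genes described here are 38 genes that type I interferon is known to induce and whose products act against viruses, chosen by name. All 38 had a row among the 23224 gene names of the deposited table, and all 38 were among the 13720 genes tested. They were followed in 11 libraries of poly(A) RNA from mouse colon cancer organoids. The labels give the genotype as AKP for every library. The constitutive SOX17OE line (1 library) and the inducible SOX17OE line (1 library) were naive AKP organoids given a lentiviral SOX17 expression construct, and no label states whether doxycycline was added to the inducible line. The RAG2KO group (3 libraries) and the C57Bl6 group (3 libraries) were organoids grown out of primary tumours after naive AKP organoids had been placed in the colon of RAG2KO mice, which lack mature T and B cells, or of C57Bl6 mice. These cultures were passaged until cancer cells alone were thought to remain, so they were measured outside the host. The naive group (3 libraries) was AKP organoids that had not been transplanted. No library is labelled as given a construct without SOX17. In comparisons of the SOX17OE lines with other groups, the lentiviral construct and SOX17 therefore cannot be told apart. Each SOX17OE line was a single culture as far as the labels show, and no source states whether replicates came from separate mice or cultures, so p-values measure only the spread between these samples.

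Type I interferons bind the receptor IFNAR1/IFNAR2, and the kinases JAK1 and TYK2 then activate STAT proteins, STAT2 among them. With IRF9 these form a complex that binds interferon-stimulated response elements in promoters and raises a large set of antiviral genes. Interferon lambda, which acts mainly on epithelia such as that of the gut, uses another receptor and the same complex, so these genes do not tell the interferons apart. The products bind or cut foreign RNA, attach the ubiquitin-like protein ISG15 or ADP-ribose to other proteins, hold virus particles at the membrane, or damp the response itself.

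Some of the promoters hold the core of the element that this complex binds. Windows from 250 bases before to 50 bases after the start of the gene, from RefSeq annotation of GRCm38.p6, were at hand for 28 of the 38 genes. The core of the response element, searched as GAAA, any 2 bases and GAAA again on either strand, was present in 11 of these 28 genes (39.3%), against 1079 of 27025 genes with a window (3.99%). The 150 bases before the start of 5 of the 11 genes are shown 5′ to 3′ on the gene's strand, which is the minus strand in each, because all 5 carry this core and their expression differed in pattern. Capitals mark it, with overlapping copies run together.
Isg15, chr4:156200819-156200968: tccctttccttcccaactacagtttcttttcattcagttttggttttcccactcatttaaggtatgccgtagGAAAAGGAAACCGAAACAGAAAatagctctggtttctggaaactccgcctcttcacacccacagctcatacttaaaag
Oas1a, chr5:120907526-120907675: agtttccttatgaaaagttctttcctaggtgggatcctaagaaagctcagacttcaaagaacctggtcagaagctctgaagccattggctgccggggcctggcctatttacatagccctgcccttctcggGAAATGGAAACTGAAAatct
Oas1g, chr5:120887614-120887763: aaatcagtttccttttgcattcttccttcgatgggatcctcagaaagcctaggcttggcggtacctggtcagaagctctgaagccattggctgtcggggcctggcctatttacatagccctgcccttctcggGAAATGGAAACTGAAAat
Bst2, chr8:71537473-71537622: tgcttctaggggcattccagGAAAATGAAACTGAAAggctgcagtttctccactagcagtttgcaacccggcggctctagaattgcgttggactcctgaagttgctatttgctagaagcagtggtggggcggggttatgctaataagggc
Oas3, chr5:120777660-120777809: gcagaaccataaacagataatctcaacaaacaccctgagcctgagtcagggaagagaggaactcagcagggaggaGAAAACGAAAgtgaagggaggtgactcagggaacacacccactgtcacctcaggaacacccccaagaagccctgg
Oas1a and Oas1g, neighbouring copies of 1 gene family, share the same capital stretch close to their starts. In Bst2 the stretch lies farther from the start, and in Oas3 it is a single copy. A match is a description of these letters and not a bound site.

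Library totals lay between 14109182 and 22154456 expected counts. Sox17 was at 72.7 CPM (counts relative to the TMM-scaled library total) in the constitutive line, 4.78 in the inducible line, 15.4 to 24.4 in RAG2KO, 12.4 to 74.3 in C57Bl6 and 0.0438 to 0.214 in naive libraries, so every library outside the naive group was above every naive one. Of the interferon genes, Ifnb1, Ifng and the lambda genes listed as Il28a and Il28b were looked up. Each was near 0, with at most 2 counts per library. Other type I interferon genes, those of interferon alpha among them, were not looked up. Rn45s, the ribosomal RNA precursor, took 6.39% of counts in the constitutive and 3.71% in the inducible line, 6.56 to 8.54% in RAG2KO, 2.21 to 3.77% in C57Bl6 and 2.42 to 4.99% in naive libraries. Summed over 17 leukocyte markers, the level was 15 CPM in the constitutive and 5.83 CPM in the inducible line, 6.47 to 16.5 CPM in RAG2KO, 5.84 to 10.1 CPM in C57Bl6 and 4 to 11.1 CPM in naive libraries. Most of it was Cd68, a lysosomal protein not limited to leukocytes. Without Cd68 the sums were 0.576 CPM in the constitutive and 0.350 CPM in the inducible line, 1.95 to 2.74 CPM in RAG2KO, 0.943 to 2.27 CPM in C57Bl6 and 0.620 to 0.745 CPM in naive libraries. Of the 17 markers, 10 were at 0 in the constitutive and 12 in the inducible line, 7 in all RAG2KO, 9 in all C57Bl6 and 8 in all naive libraries; the T cell gene Cd3g, the NK cell gene Ncr1 and the plasmacytoid dendritic cell gene Siglech were at 0 in all 11. Other markers also moved with the groups. The sum over 3 smooth muscle markers was 0.346 CPM in the constitutive and 0.175 CPM in the inducible line, 0.811 to 1.40 CPM in RAG2KO, 0.838 to 1.51 CPM in C57Bl6 and 0.131 to 0.191 CPM in naive libraries. That over 6 fibroblast markers was at most 1.87 CPM in any library. Over 4 endothelial markers it was 29.5 CPM in the constitutive and 4.43 CPM in the inducible line, 0.187 to 1.05 CPM in RAG2KO, 0.419 to 2.22 CPM in C57Bl6 and 0 to 0.286 CPM in naive libraries. Over 7 epithelial markers it was 6649 CPM in the constitutive and 8036 CPM in the inducible line, 9658 to 10764 CPM in RAG2KO, 8908 to 11164 CPM in C57Bl6 and 9536 to 11620 CPM in naive libraries. The part of these marker levels in the results was not tested.

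Taken over the 38 genes, levels stood above naive in the constitutive SOX17OE line and in RAG2KO organoids, and less so in C57Bl6 organoids. In bulk libraries a change in how many cells express a gene and a change per cell cannot be told apart. The median over the genes of log2 CPM (with a prior count of 2) minus the naive mean was 1.91 in the constitutive and 0.13 in the inducible line. It was 0.87, 2.17 and 1.37 in RAG2KO replicates 1 to 3, and 0.48, 0.78 and 0.29 in C57Bl6 replicates 1 to 3. The naive libraries gave -0.07, 0.04 and -0.02, and the median of all tested genes lay between -0.00 and 0.03 in every library. Genes more than 2-fold above the naive mean numbered 30 in the constitutive and 7 in the inducible line, 17, 29 and 22 in RAG2KO replicates 1 to 3, 7, 15 and 10 in C57Bl6 replicates 1 to 3, and 0 in each naive library. Of all tested genes, 12.2% in the constitutive and 7.84% in the inducible line were that far above, 11.6%, 16.9% and 13.3% in RAG2KO, 11%, 13.4% and 10.4% in C57Bl6 and 0.241 to 0.517% in naive libraries. Within the RAG2KO group the libraries were ordered: replicate 2 held the highest of the 3 values for 31 of the 38 genes and replicate 1 the lowest for 32, against 34.2% and 36.1% of all tested genes.

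**Figure D1:**
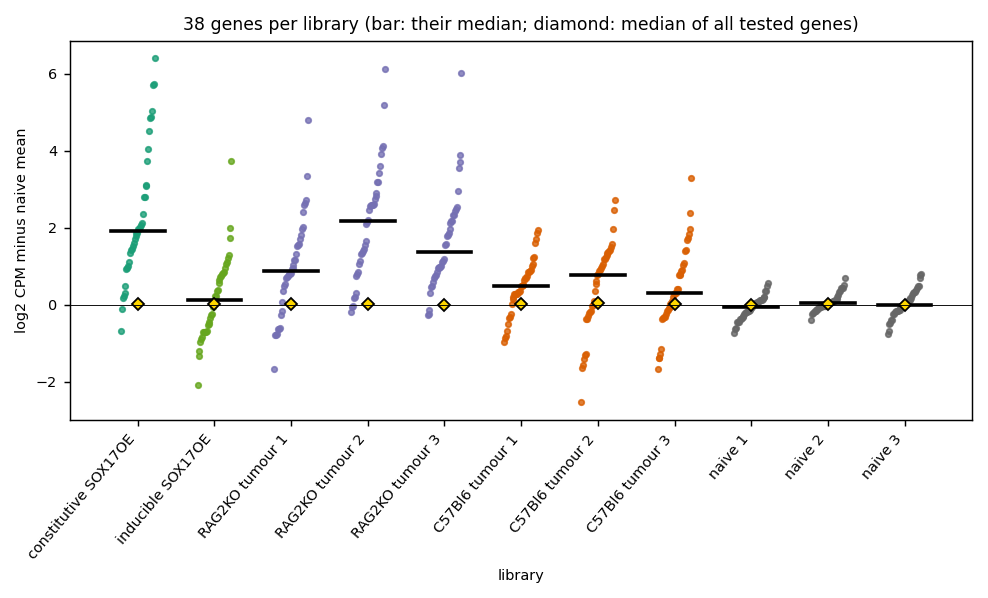
Log2 CPM minus the naive mean (vertical axis) of each of the 38 genes in each library (horizontal axis), with a bar at their median and a diamond at the median of all tested genes. The medians reach 1.91 in the constitutive line and 2.17 in RAG2KO replicate 2, while the inducible line sits at 0.13.

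**Figure D2:**
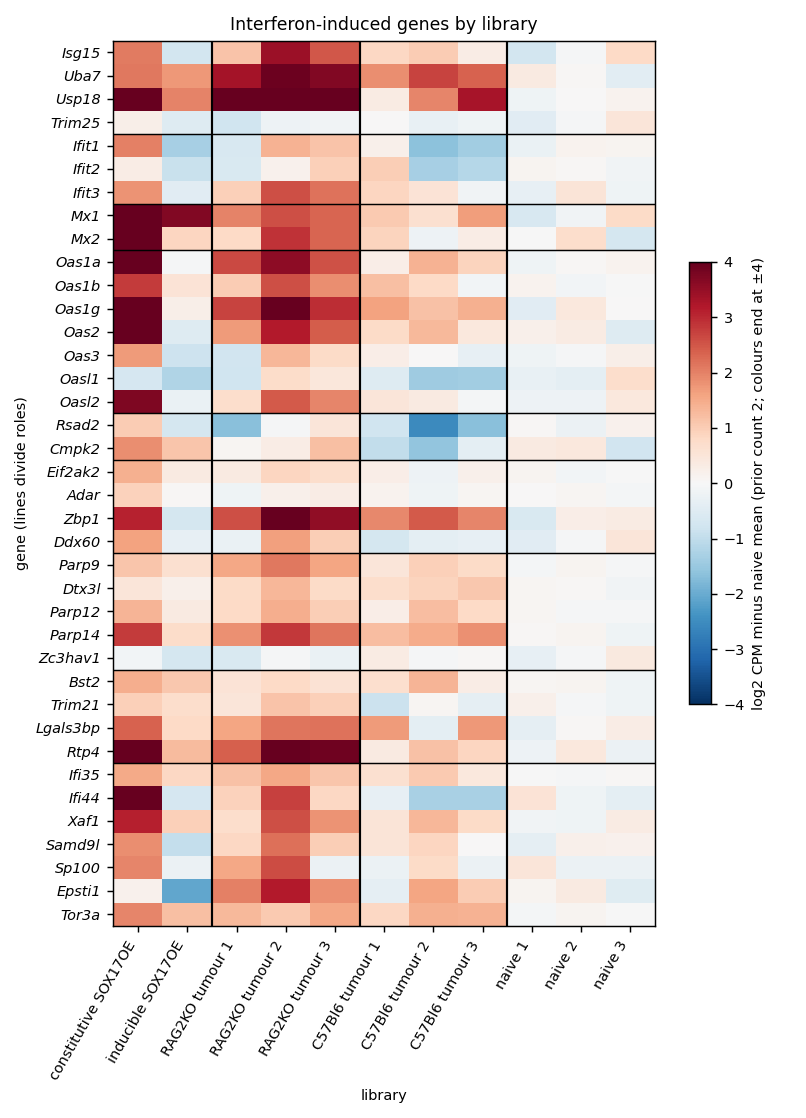
Log2 CPM minus the naive mean (colour, ending at ±4) of the 38 genes in rows, ordered by role with lines between roles, in the 11 libraries in columns. Usp18 and Rtp4 are far above naive in the RAG2KO libraries and the constitutive line, while Trim25 and Zc3hav1 stay near the naive level in most libraries.

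In RAG2KO tumour-derived organoids 25 of the 38 genes rose against naive and 0 fell, at an adjusted p under 0.05 in edgeR's quasi-likelihood test, where 16.0% of all tested genes rose and 13.3% fell. At an unadjusted p under 0.05, 28 were higher and 0 lower, and DESeq2 and voom also called 0 lower. The median log2 fold change was 1.82, against 0.02 over all tested genes. All 3 RAG2KO libraries lay above all 3 naive ones for 27 genes, which held for 24.8% of all genes, and for 0 genes did they lie below. Counts of this kind include genes that passed the filter on low counts through the groups where they are high: 24 of the 38 were over the minimum in every library, and Ifit3, Mx2, Oas1b, Oas1g, Oas2, Zbp1, Ifi44 and Sp100 were over it in no naive library. The Rn45s share was also higher in every RAG2KO library than in every naive one. With that share as a covariate 3 genes were called, Oas1a, Parp9 and Uba7, with a median of 1.55, while calls over all genes fell to 131 higher; the share and the group cannot be told apart in this design. Of the 25 calls, 17 were kept in each fit that left out 1 library. The call of Oasl2 ended without naive replicate 2 (adjusted p = 0.0519), that of Eif2ak2 without RAG2KO replicate 2 or naive replicate 2 (0.0670 and 0.0787), and that of Lgals3bp without naive replicate 1 or 2 (0.0547 and 0.0558). That of Oas1b ended without RAG2KO replicate 2 or naive replicate 2 or 3 (0.0541 to 0.0680), and that of Samd9l without any 1 naive replicate (0.0506 to 0.0614). Ifit3 and Trim21 each lost the call without RAG2KO replicate 2 or 3 or any 1 naive replicate (0.0529 to 0.0909 and 0.0569 to 0.113), and Mx2 without RAG2KO replicate 2 or 3 or naive replicate 1 or 3 (0.0557 to 0.0938).

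In C57Bl6 tumour-derived organoids 8 of the 38 genes rose against naive and 0 fell in the same test, where 9.50% of all tested genes rose and 5.85% fell. They were Uba7, Zbp1, Parp9, Dtx3l, Parp14, Bst2, Ifi35 and Tor3a. At an unadjusted p under 0.05, 14 were higher and 2 lower (Oasl1 and Rsad2), and DESeq2 and voom each called 11 higher and 1 lower. The median log2 fold change was 0.74, against 0.02 over all tested genes. No gene of the oligoadenylate synthetase, IFIT or Mx families was called in the edgeR test, although Oas1a, Oas1g and Mx1 were higher and Oasl1 lower at an unadjusted p under 0.05. Some alternatives did call members of these families: Oas1g with only the groups compared or without RAG2KO replicate 2, Oas1a without RAG2KO replicate 2 or C57Bl6 replicate 1, Mx1 with voom or without naive replicate 3, and Oasl1, as lower, with DESeq2's Wald test. The 3 C57Bl6 libraries lay above the 3 naive ones for 14 genes, against 19.9% of all genes, and below them for 2, Oasl1 and Rsad2, against 16.9%. The count of higher genes became 4 without naive replicate 1 and 4 without naive replicate 2, against 4.88% and 4.92% of all tested genes. Uba7, Dtx3l, Parp14 and Tor3a kept the call in each fit that left out 1 library. Zbp1 lost it without naive replicate 1 or 2 (adjusted p = 0.0622 and 0.0570), and Ifi35 without C57Bl6 replicate 2 or any 1 naive replicate (0.0588 to 0.0943). Parp9 lost it without C57Bl6 replicate 2 or 3 or any 1 naive replicate (0.0562 to 0.0796), and Bst2 without RAG2KO replicate 3, C57Bl6 replicate 2 or any 1 naive replicate (0.0506 to 0.112).

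Set directly against each other, RAG2KO organoids exceeded C57Bl6 organoids in 13 of the 38 genes and were lower in 0, against 11.8% and 12.2% of all tested genes. At an unadjusted p under 0.05, 27 were higher and 0 lower, and DESeq2 called 23 higher and 0 lower. The median log2 fold change was 1.32, and it was -0.00 over all tested genes. The 3 RAG2KO libraries lay above the 3 C57Bl6 ones for 19 genes, against 19.4% of all genes, and below them for 1, Zc3hav1, against 20.4%. The 13 genes were Isg15, Uba7, Usp18, Oas1a, Oas1g, Oas2, Oasl2, Cmpk2, Eif2ak2, Parp9, Trim21, Rtp4 and Ifi44. Of these, Oas2 and Ifi44 passed the count filter through RAG2KO and constitutive libraries alone. The Rn45s share was higher in every RAG2KO than in every C57Bl6 library, and with it as a covariate 0 of the 38 genes (3 higher and 0 lower at an unadjusted p under 0.05) and 1 gene in each direction over the whole table were called; the 2 cannot be told apart here. The count of higher genes became 24 without RAG2KO replicate 1, 7 without RAG2KO replicate 2, 8 without RAG2KO replicate 3 and 7 without C57Bl6 replicate 3. Of all tested genes 10.3%, 8.3%, 7.57% and 6.69% were higher in these fits, in that order. Uba7, Usp18, Oas1a, Oas1g, Parp9, Trim21 and Rtp4 kept the call in each fit that left out 1 library. Oasl2 lost it without RAG2KO replicate 2 or 3 or C57Bl6 replicate 3 (adjusted p = 0.0567 to 0.0771), and Ifi44 without RAG2KO replicate 2 or C57Bl6 replicate 3 (0.0578 and 0.0633). Isg15 lost it without RAG2KO replicate 2 or 3, any 1 C57Bl6 replicate or naive replicate 2 (0.0541 to 0.104), and Eif2ak2 without RAG2KO replicate 2 or 3, C57Bl6 replicate 2 or 3 or naive replicate 2 (0.0621 to 0.122). Oas2 and Cmpk2 each lost it in 7 such fits (0.0610 to 0.130 and 0.0540 to 0.156), Oas2 without the constitutive line, RAG2KO replicate 2 or 3, C57Bl6 replicate 1 or 3 or naive replicate 1 or 2, and Cmpk2 without RAG2KO replicate 2 or 3, any 1 C57Bl6 replicate or naive replicate 1 or 2.

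The mean of the 2 SOX17OE lines was above naive in 15 of the 38 genes and below it in 0, against 6.77% and 5.92% of all tested genes, with a median log2 fold change of 1.05 against -0.01. At an unadjusted p under 0.05, 21 were higher and 0 lower, and DESeq2 and voom also called 0 lower. The lines differed from each other, and the values followed the constitutive one. The median log2 fold change was 0.12 without the constitutive line and 1.96 without the inducible line, against 0.00 and -0.00 over all tested genes. Without naive replicate 2 the count of higher genes was 7, against 1.84% of all tested genes. Without naive replicate 3 it was 6, against 2.34%. Leaving out 1 of the 2 lines leaves a single library, which the fit assumes to vary like the other groups. In the full fit too each line is a group of 1 library. The SE and p-values there come from the spread within the RAG2KO, C57Bl6 and naive groups and leave out the spread between the lines. Both lines lay above every naive library for 18 genes, against 25.3% of all genes, and below for 1, Oasl1, against 23.0%. Oas1a, Oas1g and Oasl2 were called although the inducible line was within or below the naive range. Mx2, also called, passed the count filter through RAG2KO and constitutive libraries alone. Without the constitutive line all of the 15 calls but that of Mx1 ended. Leaving out naive replicates 1 to 3 one at a time also ended the calls of Usp18, Mx2, Oasl2, Parp9 and Xaf1 (0.0504 to 0.134); naive replicate 2 or 3 ended those of Oas1g, Eif2ak2 and Bst2 (0.0511 to 0.0688), and naive replicate 3 that of Rtp4 (0.0598). Mx2 and Oasl2 also lost the call without RAG2KO replicate 3 or C57Bl6 replicate 3, and Oasl2 without C57Bl6 replicate 2 (0.0533 to 0.0611).

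**Figure D3:**
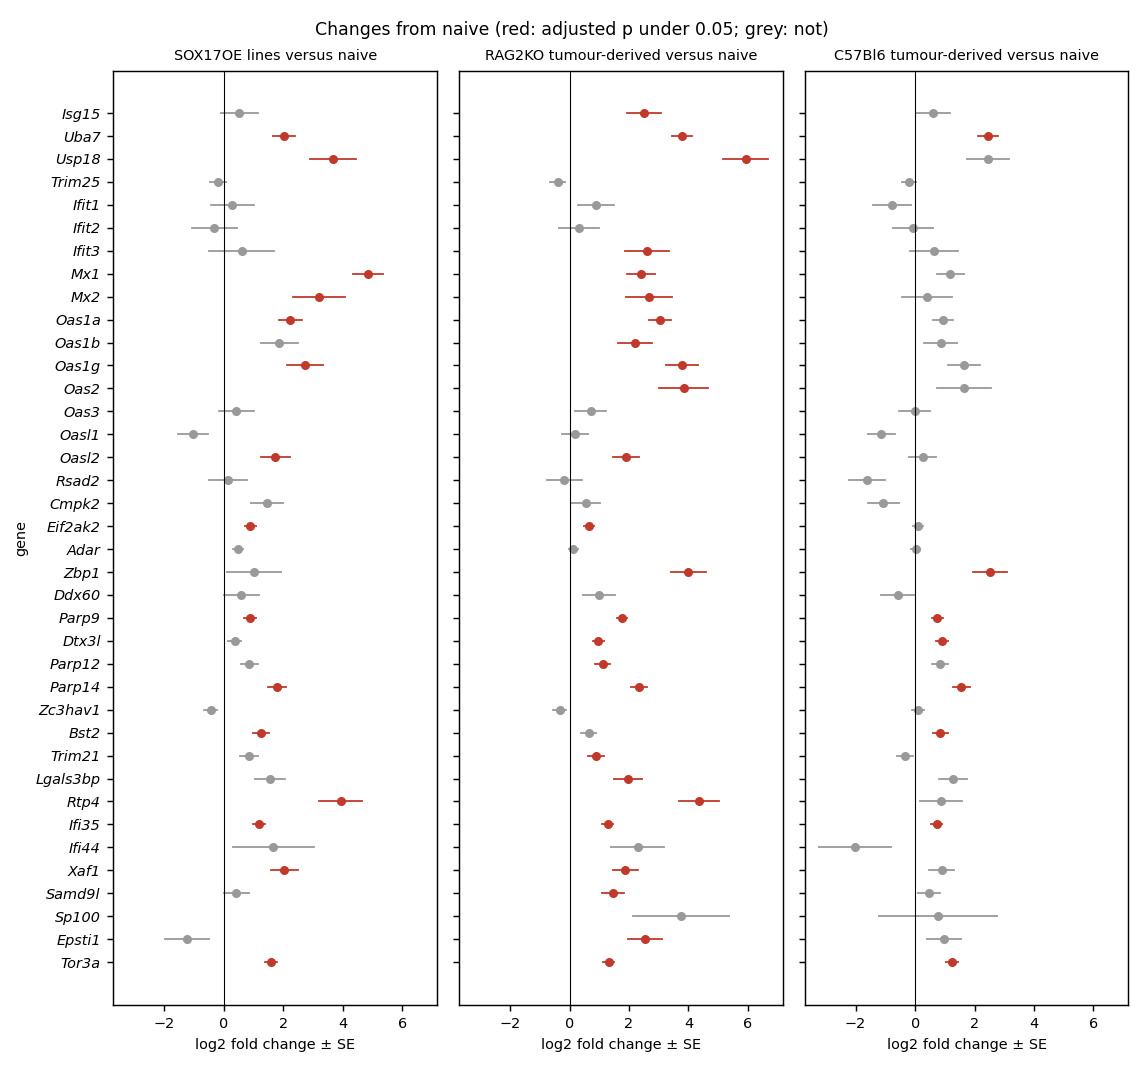
Log2 fold change ± SE (horizontal axis) of each gene (rows) for the SOX17OE lines, RAG2KO and C57Bl6 organoids against naive, red where the adjusted p is under 0.05. Red points number 15, 25 and 8; Oas2 and Sp100 are left out of the SOX17OE panel because the inducible line had 0 counts.

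Among the genes of the ISG15 system, Usp18 and Uba7 had the clearest differences and Trim25 had none that passed the test. Usp18, the protease that removes ISG15 from proteins and also damps the interferon receptor, was at 27.5 CPM in the constitutive and 3.21 CPM in the inducible line, 23.5, 58.3 and 54.7 CPM in RAG2KO, 0.943, 3.14 and 8.08 CPM in C57Bl6 and 0.643, 0.745 and 0.810 CPM in naive libraries. Every RAG2KO library was above every C57Bl6 library, and each of these and both lines were above every naive one. The log2 fold change was 5.93 (SE 0.75, adjusted p = 0.000994) for RAG2KO against naive, 3.48 (SE 0.63, adjusted p = 0.00675) for RAG2KO against C57Bl6 and 4.48 without C57Bl6 replicate 3. In C57Bl6 against naive it was 2.45 (SE 0.72, adjusted p = 0.0502), just short of the threshold. For the SOX17OE lines against naive it was 3.66 (SE 0.77, adjusted p = 0.0194), 2.11 without the constitutive and 5.21 without the inducible line.

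Uba7, the enzyme that activates ISG15 for attachment, was at 4.38 CPM in the constitutive and 3.32 CPM in the inducible line, 10.3, 15.5 and 13.4 CPM in RAG2KO, 3.67, 6.68 and 5.25 CPM in C57Bl6 and 1.22, 0.964 and 0.667 CPM in naive libraries. It was called in every comparison against naive, with log2 fold changes of 2.02 in the SOX17OE lines (SE 0.36, adjusted p = 0.0102; adjusted p = 0.0848 without the constitutive line), 3.79 in RAG2KO (SE 0.34, adjusted p = 0.000154) and 2.46 in C57Bl6 (SE 0.33, adjusted p = 0.00118). RAG2KO organoids exceeded C57Bl6 organoids by 1.33 (SE 0.30, adjusted p = 0.0131). Isg15 itself, the modifier, was at 14.9 CPM in the constitutive and 2.04 CPM in the inducible line, 7.75, 38 and 19.9 CPM in RAG2KO, 6.24, 7.01 and 4.29 CPM in C57Bl6 and 2, 3.33 and 6.05 CPM in naive libraries. The RAG2KO libraries were spread widely but lay above all C57Bl6 and naive ones, which overlapped each other. Isg15 rose by 2.51 in RAG2KO (SE 0.57, adjusted p = 0.0109), and by 1.85 without RAG2KO replicate 2. Trim25, a ligase that can attach ISG15 and that aids RNA sensing, was at 82.3 and 48.6 CPM in the constitutive and inducible lines, 40.6 to 64.2 CPM in RAG2KO, 57.1 to 71.3 CPM in C57Bl6 and 51.7 to 98.7 CPM in naive libraries, with overlap of all groups.

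**Figure D4:**
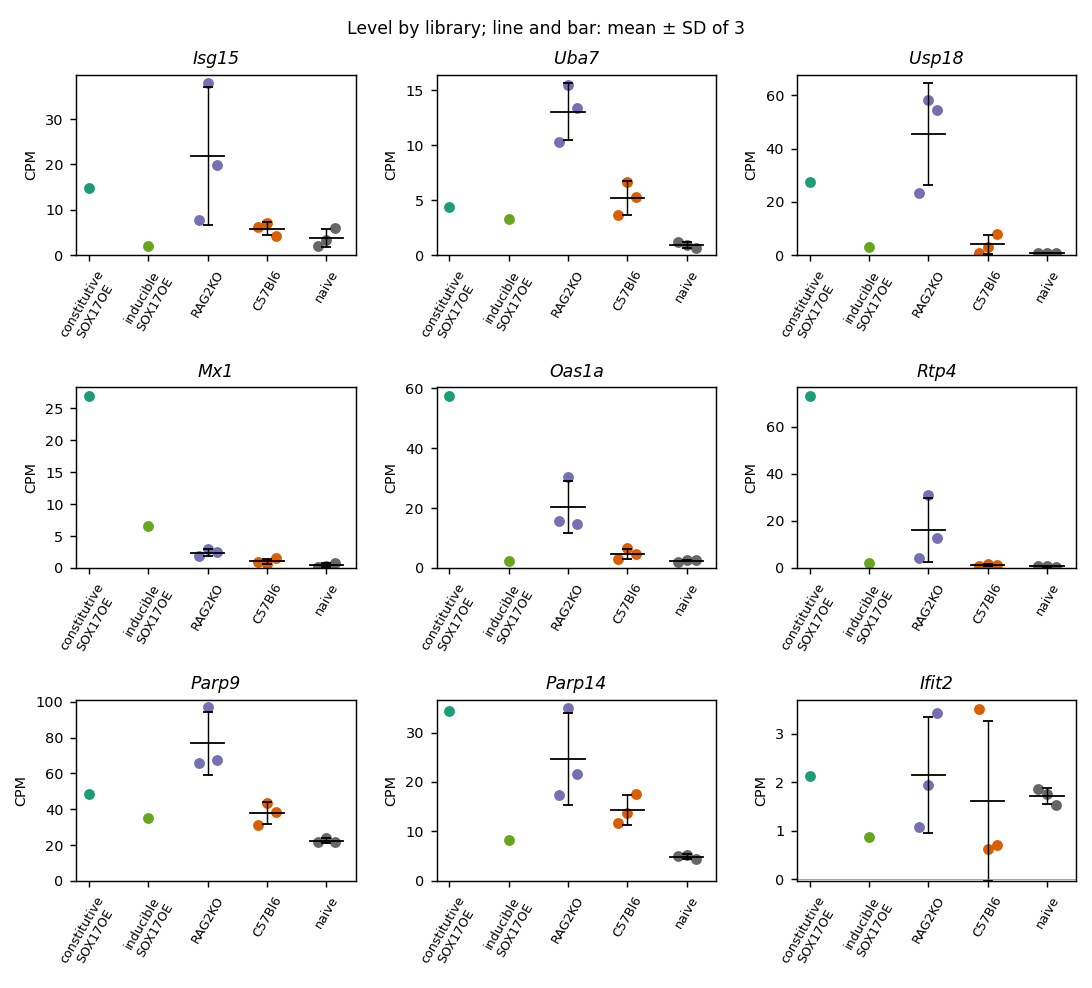
CPM (vertical axes) of 9 genes by library, with groups on the horizontal axis and a line and bar for the mean ± SD of 3. RAG2KO libraries lie above all C57Bl6 and naive ones for Isg15, Uba7, Usp18, Mx1, Oas1a, Rtp4 and Parp9, and overlap C57Bl6 for Parp14; Ifit2 overlaps in all 3 groups.

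The oligoadenylate synthetases sense double-stranded RNA and make a nucleotide messenger of the antiviral response. Of the 7 genes of this family, 3 rose in the SOX17OE lines against naive, 5 in RAG2KO organoids and none in C57Bl6 organoids. Of all tested genes 6.77%, 16.0% and 9.50% rose in that order, so none of 7 in C57Bl6 organoids was near the share of all genes. In C57Bl6 organoids 2 of the 7 were higher and 1 lower at an unadjusted p under 0.05. Oas1a was at 57.5 CPM in the constitutive and 2.33 CPM in the inducible line, 15.8, 30.4 and 14.7 CPM in RAG2KO, 2.93, 6.51 and 4.65 CPM in C57Bl6 and 2.14, 2.50 and 2.67 CPM in naive libraries. The inducible line was inside the naive range, whereas the constitutive line had the highest value of all libraries. Oas1a rose by 3.05 on the log2 scale in RAG2KO against naive (SE 0.36, adjusted p = 0.000562) and by 2.11 against C57Bl6 (SE 0.34, adjusted p = 0.00395). Its value in C57Bl6 against naive was 0.94 (SE 0.35, adjusted p = 0.103), although the libraries did not overlap. The SOX17OE value of 2.24 (SE 0.39, adjusted p = 0.00981) became -0.07 without the constitutive line and 4.55 without the inducible line.

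Oas1g, a neighbouring copy, was at 10.1 CPM in the constitutive and 0.291 CPM in the inducible line, 2.16, 5.90 and 2.56 CPM in RAG2KO, 0.943, 0.673 and 0.808 CPM in C57Bl6 and 0.143, 0.351 and 0.238 CPM in naive libraries. RAG2KO, C57Bl6 and naive libraries formed 3 ranges that did not overlap. The log2 fold change of RAG2KO was 3.78 against naive (SE 0.53, adjusted p = 0.00118; 3.19 without RAG2KO replicate 2) and 2.12 against C57Bl6 (SE 0.47, adjusted p = 0.0122). In C57Bl6 against naive it was 1.65 (SE 0.53, adjusted p = 0.0607), and for the SOX17OE lines it was 2.74 (SE 0.61, adjusted p = 0.0211; 0.21 without the constitutive and 5.28 without the inducible line). Oas1b, which carries a disabling stop in many laboratory mouse strains, was at 3.75 and 0.699 CPM in the constitutive and inducible lines, 1.01, 3.21 and 1.87 CPM in RAG2KO, 1.15, 0.842 and 0.404 CPM in C57Bl6 and 0.500, 0.394 and 0.429 CPM in naive libraries. It was above naive in both lines and every RAG2KO library, and rose by 2.20 in RAG2KO (SE 0.56, adjusted p = 0.0163). Oas1a, Oas1b and Oas1g are similar in sequence, and 28 of the 38 genes had estimates that were not whole numbers in some library, so reads may have been divided between copies.

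Oas2 was at 8.18 and 0 CPM in the constitutive and inducible lines, 0.404, 1.34 and 0.748 CPM in RAG2KO, 0.157, 0.281 and 0.101 CPM in C57Bl6 and 0.0715, 0.0876 and 0 CPM in naive libraries. It had 142 counts in the constitutive line, which puts it at least 46.8-fold above the inducible line, where it was at 0 counts and the floor is 3. In RAG2KO organoids it had 41 counts over the 3 libraries against 3 in naive ones, a ratio of 16.5 with a 95% counting interval of 5.25 to 83.1, and in C57Bl6 organoids 10 counts, a ratio of 3.40 (0.875 to 19.2). Oasl2, which binds RNA and makes the same messenger in the mouse, was at 20.5 CPM in the constitutive and 1.17 CPM in the inducible line, 2.43, 8.35 and 5.86 CPM in RAG2KO, 2.04, 1.85 and 1.36 CPM in C57Bl6 and 1.22, 1.23 and 1.95 CPM in naive libraries. RAG2KO libraries were above all C57Bl6 and naive ones, with 1.91 against naive (SE 0.44, adjusted p = 0.0109). Oas3 and Oasl1 were called in no comparison against naive. Oas3 was at 4.26 CPM in the constitutive and 0.641 CPM in the inducible line. It ranged from 0.674 to 3.27 CPM in RAG2KO, 0.96 to 1.52 CPM in C57Bl6 and 1.07 to 1.48 CPM in naive libraries. Oasl1, which in the mouse restrains translation of Irf7, was at 18.9 and 13.1 CPM in the constitutive and inducible lines, 17.5 to 50.8 CPM in RAG2KO, 11.3 to 21.3 CPM in C57Bl6 and 23.0 to 49.3 CPM in naive libraries. It was the 1 gene of the 38 for which both lines and all C57Bl6 libraries were below every naive library, and its values against naive were -1.04 (SE 0.51, adjusted p = 0.200) in the lines and -1.14 (SE 0.45, adjusted p = 0.120) in C57Bl6.

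Mx1 and Mx2, dynamin-like GTPases that block virus replication and that carry disabling mutations in many laboratory mouse strains, stood out in the SOX17OE lines. Mx1 was at 26.9 CPM in the constitutive and 6.59 CPM in the inducible line, 1.89, 2.92 and 2.43 CPM in RAG2KO, 0.943, 0.673 and 1.52 CPM in C57Bl6 and 0.214, 0.351 and 0.763 CPM in naive libraries. Both lines were above every other library, and RAG2KO libraries were above all C57Bl6 and naive ones. Mx1 was called in the SOX17OE lines against naive (4.85, SE 0.51, adjusted p = 0.00126), against C57Bl6 (3.66, SE 0.47, adjusted p = 0.00107) and against RAG2KO (2.46, SE 0.45, adjusted p = 0.0180; adjusted p = 0.250 without the constitutive line). Against naive and C57Bl6 the call held without either line, at 3.84 and 2.65 without the constitutive and 5.87 and 4.68 without the inducible line, and at 5.48 against naive without naive replicate 3. In RAG2KO organoids Mx1 rose by 2.39 against naive (SE 0.47, adjusted p = 0.00549; 3.02 without naive replicate 3). Mx2 was at 7.32 CPM in the constitutive and 0.350 CPM in the inducible line, 0.337, 1.81 and 1.18 CPM in RAG2KO, 0.367, 0.112 and 0.202 CPM in C57Bl6 and 0.143, 0.307 and 0.0477 CPM in naive libraries. The constitutive line was well above all others. Mx2 rose by 2.67 in RAG2KO (SE 0.78, adjusted p = 0.0284; 3.55 without naive replicate 2) and by 3.20 in the lines (SE 0.86, adjusted p = 0.0392; 1.02 without the constitutive, 5.38 without the inducible line and 4.07 without naive replicate 2).

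The IFIT genes, whose products bind foreign RNA and block its translation, gave 1 call among 3 genes in RAG2KO organoids against naive. Over all tested genes 16.0% rose in that comparison. In the SOX17OE lines and C57Bl6 organoids none of the 3 reached an unadjusted p under 0.05. Ifit3 was at 0.692 and 0.0583 CPM in the constitutive and inducible lines, 0.337, 1.28 and 0.936 CPM in RAG2KO, 0.314, 0.224 and 0.101 CPM in C57Bl6 and 0.0715, 0.219 and 0.0953 CPM in naive libraries. At these low levels all RAG2KO libraries were above all naive ones, with a rise of 2.61 (SE 0.75, adjusted p = 0.0271; 3.23 without naive replicate 2). Ifit1 was at 6.92 CPM in the constitutive and 0.583 CPM in the inducible line, 1.01, 4.5 and 3.74 CPM in RAG2KO, 1.89, 0.449 and 0.556 CPM in C57Bl6 and 1.36, 1.84 and 1.76 CPM in naive libraries. RAG2KO replicate 1 was below the naive libraries and replicates 2 and 3 above them. Ifit2 ranged from 1.08 to 3.43 CPM in RAG2KO, 0.617 to 3.51 CPM in C57Bl6 and 1.53 to 1.86 CPM in naive libraries, and its log2 fold change in RAG2KO against naive was 0.33 (SE 0.67, adjusted p = 0.745).

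Rsad2 (viperin) and Cmpk2, neighbouring genes for an enzyme that makes an antiviral nucleotide and for a nucleotide kinase, were not called against naive in any group. Rsad2 was at 5.82 CPM in the constitutive and 1.69 CPM in the inducible line, 0.809, 2.74 and 3.99 CPM in RAG2KO, 1.57, 0.393 and 0.808 CPM in C57Bl6 and 2.93, 2.41 and 3.19 CPM in naive libraries. All C57Bl6 libraries were below all naive ones, at -1.61 (SE 0.60, adjusted p = 0.100). Cmpk2 was at 5.88 CPM in the constitutive and 3.44 CPM in the inducible line, 1.62, 1.93 and 3.68 CPM in RAG2KO, 0.734, 0.449 and 1.16 CPM in C57Bl6 and 2, 2.1 and 0.858 CPM in naive libraries. It was higher in RAG2KO than in C57Bl6 organoids, at 1.61 (SE 0.52, adjusted p = 0.0466), and higher in the SOX17OE lines than in C57Bl6 organoids, at 2.51 (SE 0.56, adjusted p = 0.0103; adjusted p = 0.0576 without the constitutive line).

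Of the 4 genes for proteins that bind double-stranded RNA or Z-form nucleic acid, Zbp1 and Eif2ak2 rose in RAG2KO organoids. Of all tested genes 16.0% rose there against naive. Zbp1, a sensor of Z-form nucleic acid that can start cell death, was at 2.25 CPM in the constitutive and 0.0583 CPM in the inducible line, 1.55, 4.5 and 3.12 CPM in RAG2KO, 0.943, 1.40 and 0.960 CPM in C57Bl6 and 0.0715, 0.219 and 0.238 CPM in naive libraries. The RAG2KO, C57Bl6 and naive ranges did not overlap. Its log2 fold change against naive was 4 in RAG2KO (SE 0.58, adjusted p = 0.00140) and 2.53 in C57Bl6 (SE 0.57, adjusted p = 0.0157), and RAG2KO against C57Bl6 gave 1.47 (SE 0.49, adjusted p = 0.0538). Eif2ak2, the kinase PKR that halts translation, was at 107 and 52.3 CPM in the constitutive and inducible lines, 51.9, 73.0 and 65.2 CPM in RAG2KO, 49.0, 34.7 and 46.3 CPM in C57Bl6 and 43.9, 37.2 and 40.3 CPM in naive libraries. It rose by 0.65 in RAG2KO (SE 0.17, adjusted p = 0.0186) and by 0.89 in the lines (SE 0.19, adjusted p = 0.0178; adjusted p = 0.423 without the constitutive line). Adar, which edits adenosine in double-stranded RNA, was at 54.2 CPM in the constitutive line and between 25.2 and 35.3 CPM in the other 10 libraries, and its value in RAG2KO against naive was 0.12 (SE 0.15, adjusted p = 0.566). Ddx60, a helicase, was called in no comparison against naive. It was at 3 CPM in the constitutive and 0.699 CPM in the inducible line. Its range was 0.741 to 3.09 CPM in RAG2KO, 0.524 to 0.707 CPM in C57Bl6 and 0.643 to 1.33 CPM in naive libraries.

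The genes of ADP-ribosylation made up 3 of the 8 that rose in C57Bl6 organoids, where 9.50% of all tested genes rose. Parp9 and Dtx3l, which form a complex and are transcribed from neighbouring starts, and Parp14, a transferase of single ADP-ribose units, rose in both tumour-derived groups. Parp14 was at 34.3 CPM in the constitutive and 8.22 CPM in the inducible line, 17.3, 35 and 21.6 CPM in RAG2KO, 11.7, 13.8 and 17.5 CPM in C57Bl6 and 5, 5.26 and 4.34 CPM in naive libraries. Each library outside the naive group was above every naive one. The log2 fold changes against naive were 1.79 in the lines (SE 0.29, adjusted p = 0.00776; 0.76 without the constitutive and 2.82 without the inducible line), 2.34 in RAG2KO (SE 0.27, adjusted p = 0.000549) and 1.56 in C57Bl6 (SE 0.27, adjusted p = 0.00431). Parp9 was at 48.5 and 34.9 CPM in the constitutive and inducible lines, 66, 97.1 and 67.6 CPM in RAG2KO, 31.4, 43.7 and 38.4 CPM in C57Bl6 and 21.5, 24.1 and 21.9 CPM in naive libraries. RAG2KO, C57Bl6 and naive libraries again formed 3 separate ranges, with 1.77 in RAG2KO (SE 0.18, adjusted p = 0.000294) and 0.75 in C57Bl6 (SE 0.18, adjusted p = 0.0206) against naive and 1.02 between the tumour-derived groups (SE 0.18, adjusted p = 0.00507).

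Dtx3l was at 14.4 and 11.9 CPM in the constitutive and inducible lines, 17.3, 25.5 and 17.3 CPM in RAG2KO, 16.6, 19 and 21.8 CPM in C57Bl6 and 10.9, 10.5 and 9.30 CPM in naive libraries. Its difference between RAG2KO and C57Bl6 organoids was 0.07 (SE 0.19, adjusted p = 0.817). Its rise against naive was 0.97 in RAG2KO (SE 0.19, adjusted p = 0.00613) and 0.90 in C57Bl6 (SE 0.19, adjusted p = 0.0123). Whether the Parp9 and Dtx3l changes differ from each other was not tested. Parp12, which also transfers single ADP-ribose units, was at 20.3 and 10.2 CPM in the constitutive and inducible lines, 13.7, 21.7 and 15.6 CPM in RAG2KO, 9.54, 18.7 and 13.9 CPM in C57Bl6 and 8.36, 7.67 and 7.72 CPM in naive libraries. It rose by 1.11 in RAG2KO (SE 0.26, adjusted p = 0.0117) and was at 0.83 in C57Bl6 (SE 0.26, adjusted p = 0.0548), where all libraries were nonetheless above naive. Zc3hav1 (ZAP), which binds CpG-rich viral RNA, was not called in any comparison against naive, and it was lower in every RAG2KO library (29.7, 44.0 and 38.3 CPM) than in every C57Bl6 library (57.3, 44.5 and 47.5 CPM), at -0.41 (SE 0.21, adjusted p = 0.163).

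Rtp4, a chaperone of membrane receptors with antiviral activity, was 6.41 above the naive mean in the constitutive line in log2 CPM with a prior count of 2, the highest of the 38 genes on that scale. By the plain ratio of CPM to the naive mean Oas2 stood higher, at 154 against 94.7 for Rtp4, with 3 counts of Oas2 in all naive libraries together. It was at 73.1 CPM in the constitutive and 1.98 CPM in the inducible line, 4.45, 31.0 and 12.7 CPM in RAG2KO, 0.996, 1.85 and 1.46 CPM in C57Bl6 and 0.643, 1.05 and 0.620 CPM in naive libraries. RAG2KO libraries were above all C57Bl6 and naive ones and were spread widely. The log2 fold change was 4.35 in RAG2KO against naive (SE 0.67, adjusted p = 0.00233; 3.45 without RAG2KO replicate 2) and 3.48 against C57Bl6 (SE 0.63, adjusted p = 0.00672; 2.58 without RAG2KO replicate 2). In the lines it was 3.93 (SE 0.73, adjusted p = 0.0128; 1.34 without the constitutive and 6.53 without the inducible line). Bst2 (tetherin), which holds budding virus at the cell surface, differed in another way: it was at 79.8 and 61.1 CPM in the constitutive and inducible lines, 42.4, 50.5 and 43.9 CPM in RAG2KO, 47.0, 75.2 and 35.8 CPM in C57Bl6 and 30.6, 31.6 and 25.6 CPM in naive libraries. Every other library was above every naive one, and RAG2KO and C57Bl6 overlapped. Its value was 1.25 in the lines (SE 0.26, adjusted p = 0.0169; adjusted p = 0.140 without the constitutive line), 0.64 in RAG2KO (SE 0.24, adjusted p = 0.0659) and 0.85 in C57Bl6 (SE 0.24, adjusted p = 0.0373).

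Trim21, a cytosolic receptor for antibody-coated virus, was at 13.1 and 11 CPM in the constitutive and inducible lines, 9.37, 14.7 and 13.0 CPM in RAG2KO, 3.62, 7.13 and 5.20 CPM in C57Bl6 and 7.65, 6.53 and 5.96 CPM in naive libraries. RAG2KO organoids exceeded both naive (0.89, SE 0.27, adjusted p = 0.0346) and C57Bl6 organoids (1.22, SE 0.28, adjusted p = 0.0130). Lgals3bp, a secreted glycoprotein, was at 157 and 52.9 CPM in the constitutive and inducible lines, 91.4, 135 and 138 CPM in RAG2KO, 99.7, 23.5 and 102 CPM in C57Bl6 and 23.7, 31.7 and 37.8 CPM in naive libraries. C57Bl6 replicate 2 was below the naive range while its other replicates were far above it, and the gene was called in RAG2KO (1.97, SE 0.47, adjusted p = 0.0147) but not in C57Bl6 (1.27, SE 0.46, adjusted p = 0.0979).

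Of the 7 other induced genes, 5 rose in RAG2KO organoids against naive (Ifi35, Xaf1, Samd9l, Epsti1 and Tor3a). In C57Bl6 organoids 2 rose (Ifi35 and Tor3a), and in the SOX17OE lines 3 (Ifi35, Xaf1 and Tor3a). Of all tested genes 16.0%, 9.50% and 6.77% rose in that order. Ifi35 was at 41.3 and 25.7 CPM in the constitutive and inducible lines, 32.5, 42.2 and 31.2 CPM in RAG2KO, 22.6, 30.1 and 19.2 CPM in C57Bl6 and 14.3, 14.1 and 14.8 CPM in naive libraries. Its naive libraries hardly differed and every other library was above them, with 1.18 in the lines (SE 0.20, adjusted p = 0.00955; adjusted p = 0.145 without the constitutive line), 1.29 in RAG2KO (SE 0.19, adjusted p = 0.00141) and 0.73 in C57Bl6 (SE 0.19, adjusted p = 0.0257). Tor3a, a torsin ATPase, was at 49.0 and 28.7 CPM in the constitutive and inducible lines, 31.1, 25.8 and 36.4 CPM in RAG2KO, 22.3, 33.2 and 33.1 CPM in C57Bl6 and 11.8, 13.4 and 12.2 CPM in naive libraries. It rose by 1.59 in the lines (SE 0.21, adjusted p = 0.00285; adjusted p = 0.0672 without the constitutive line), by 1.32 in RAG2KO (SE 0.19, adjusted p = 0.00140) and by 1.24 in C57Bl6 (SE 0.19, adjusted p = 0.00238), with every library above every naive one. Xaf1, which promotes apoptosis, was at 61.4 and 13.6 CPM in the constitutive and inducible lines, 11.4, 42.2 and 24.5 CPM in RAG2KO, 9.96, 17.9 and 12.0 CPM in C57Bl6 and 6.29, 6.18 and 8.77 CPM in naive libraries. It rose by 1.88 in RAG2KO (SE 0.42, adjusted p = 0.0109) and 2.03 in the lines (SE 0.46, adjusted p = 0.0230; 0.94 without the constitutive and 3.11 without the inducible line), and was at 0.90 in C57Bl6 (SE 0.42, adjusted p = 0.182). Samd9l, a growth-restraining antiviral factor, was at 45.2 and 6.35 CPM in the constitutive and inducible lines, 22.1, 57.5 and 24.6 CPM in RAG2KO, 17.7, 22.7 and 12.5 CPM in C57Bl6 and 9.65, 14.3 and 14 CPM in naive libraries. The inducible line was below and every RAG2KO library above the naive range, with 1.45 in RAG2KO (SE 0.37, adjusted p = 0.0182).

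Epsti1 was below the naive range in the inducible line and inside it in the constitutive line. It was at 1.27 CPM in the constitutive and 0.175 CPM in the inducible line, 4.85, 11 and 4.18 CPM in RAG2KO, 0.838, 3.53 and 2.37 CPM in C57Bl6 and 1.22, 1.45 and 0.763 CPM in naive libraries. It rose in RAG2KO against naive (2.54, SE 0.58, adjusted p = 0.0102), and was lower in the lines than in RAG2KO organoids (-3.79, SE 0.76, adjusted p = 0.0255; -5.20 without the constitutive and -2.39 without the inducible line). Ifi44 was at 4.38 CPM in the constitutive and 0.0583 CPM in the inducible line, 0.404, 1.69 and 0.374 CPM in RAG2KO, 0.105, 0 and 0 CPM in C57Bl6 and 0.286, 0.131 and 0.0953 CPM in naive libraries. It had 41 counts over the RAG2KO libraries and 2 over the C57Bl6 libraries, a ratio of 24.2 with a 95% counting interval of 6.29 to 207. Its log2 fold change of 4.31 (SE 1.08, adjusted p = 0.0193) became 3.23 without RAG2KO replicate 2 and 6.90 without C57Bl6 replicate 1. Sp100 had 16 counts over RAG2KO, 2 over C57Bl6 and 1 over naive libraries, too few for a level.

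Each SOX17OE line was also described alone, with no test because each is 1 library. The counts that follow include Ifit3, Mx2, Oas2 and Ifi44, which passed the count filter through RAG2KO and constitutive libraries alone. The constitutive line was more than 2-fold above the naive mean in 30 of the 38 genes and more than 2-fold below in 0, against 12.2% and 8.22% of all tested genes. The inducible line was more than 2-fold above it in 7 and below in 3, against 7.84% and 5.44%. The constitutive line exceeded the inducible line in 38 of 38 genes, by more than 2-fold in 25, against 9.33% of all tested genes (6.50% were as far below), with a median log2 difference of 2.03 against 0.00. Sox17 was also higher in the constitutive line, at 72.7 against 4.78 CPM, and so was the Rn45s share, at 6.39 against 3.71%; with 1 library of each their part was not tested. The endothelial gene Tek was at 26.0 CPM in the constitutive line.

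The size of the gap between the lines varied widely by gene. The ratio of constitutive to inducible CPM was 36.9 for Rtp4 (95% counting interval 26.2 to 53.5), 34.6 for Oas1g (14.5 to 108), 24.6 for Oas1a (18.0 to 34.7), 20.9 for Mx2 (9.35 to 58.1) and 17.6 for Oasl2 (11.2 to 29.2). These intervals cover counting error only. It was 8.59 for Usp18 (6.49 to 11.6), 7.29 for Isg15 (5.11 to 10.7), 4.09 for Mx1 (3.32 to 5.06) and 1.32 for Uba7 (0.923 to 1.89). For Uba7 and Trim21 the interval includes 1, and these and Bst2, Tor3a, Parp9 and Ifi35 were above every naive library in both lines. For 9 genes the constitutive line was above and the inducible line below every naive library, against 4.31% of all tested genes, and the opposite held for 0, against 5.02%. Genes above every naive library numbered 34 in the constitutive line, against 38.8% of all tested genes, and 18 in the inducible line, against 37.1%; 1 gene (Oasl1) was below every naive library in the constitutive line and 13 were in the inducible line, against 36.3% and 34.1%.

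**Figure D5:**
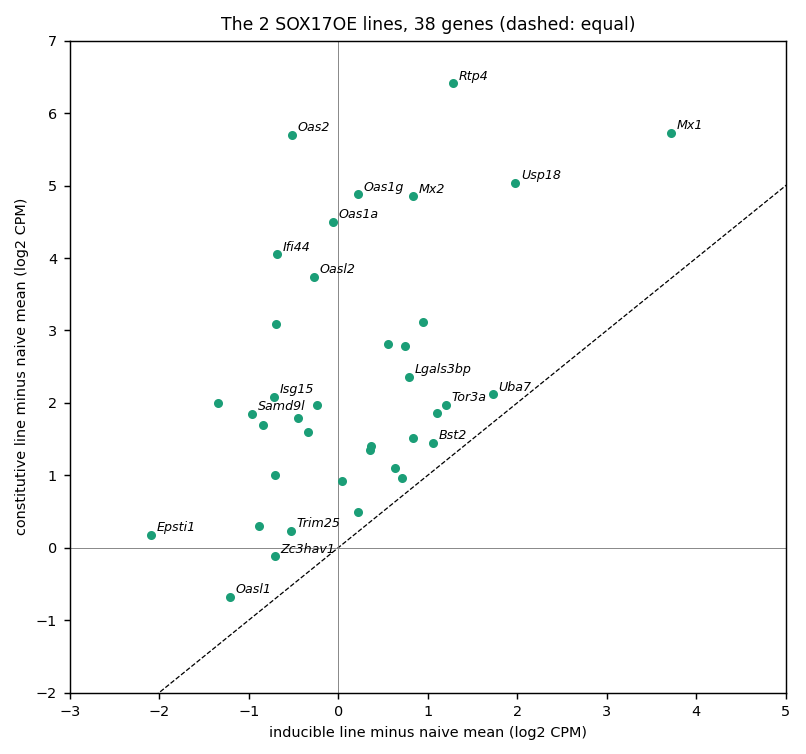
Log2 CPM minus the naive mean in the constitutive line (vertical axis) and the inducible line (horizontal axis) for the 38 genes, with a dashed line where both are equal. All 38 points lie above the dashed line; Rtp4 is at 6.41 and 1.28, and Oas2, with 0 counts in the inducible line, is at 5.70 and -0.52.

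Compared with the tumour-derived organoids, the lines were higher than C57Bl6 organoids in 8 of the 38 genes and lower in 1, against 12.1% and 15.1% of all tested genes. The 8 were Mx1, Mx2, Oas1a, Oasl2, Cmpk2, Eif2ak2, Trim21 and Rtp4. Of these, Mx2 passed the count filter through RAG2KO and constitutive libraries alone. Epsti1 was lower at -2.23 (SE 0.74, adjusted p = 0.0480), and was at -0.82 without the inducible line. Against RAG2KO organoids 1 gene, Mx1, was higher and 4 were lower, against 0.685% and 2.87% of all tested genes, or 3.56% in either direction. None of these 5 was called with only the groups compared or with the Rn45s covariate (2 higher in each and 4 and 7 lower at an unadjusted p under 0.05). Few genes of any kind were called there. With only the groups compared 0.0472% of all genes were higher and 0.252% lower, and with the covariate 0.117% and 0.962%. The 4 were Uba7 (-1.78, SE 0.35, adjusted p = 0.0251), Zbp1 (-3, SE 0.69, adjusted p = 0.0434), Parp9 (-0.90, SE 0.20, adjusted p = 0.0402) and Epsti1. Against C57Bl6 organoids the median log2 fold change of 0.41 became -0.42 without the constitutive and 1.35 without the inducible line. Against RAG2KO organoids the count of lower genes became 2 without RAG2KO replicate 3 or any 1 naive replicate, against 1.94 to 2.67% of all tested genes. It became 0 without RAG2KO replicate 2 (6 at an unadjusted p under 0.05), against 1.93%. The median log2 fold change of -0.42 became -1.51 without the constitutive and 0.60 without the inducible line. Without the inducible line these 4 adjusted p-values lay between 0.147 for Uba7 and 0.871 for Zbp1, and Zbp1 was at -0.44; without the constitutive line Zbp1 was at -5.56. Of these 14 calls, Mx1 against C57Bl6 was the 1 kept in each fit that left out 1 library. The other 7 higher genes against C57Bl6 lost the call without the constitutive line (0.0576 for Cmpk2 to 0.747 for Mx2), where Oas1a was at -1.01 and Oasl2 at -0.58. Mx2 also lost it without C57Bl6 replicate 2 or 3 and Oas1a without C57Bl6 replicate 1 or 3 (0.0699 to 0.0841), while Oasl2 lost it in 7 and Epsti1 in 9 of the 11 such fits. The 4 lower genes against RAG2KO organoids each lost the call without RAG2KO replicate 2 too (0.0511 to 0.0978).

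The genes that carry the interferon signal were read from a list of 26, of which 22 passed the filter. In the SOX17OE lines 2 of the 22 rose against naive and 1 fell, in RAG2KO organoids 7 rose and 0 fell (3 were lower at an unadjusted p under 0.05 in the edgeR test), and in C57Bl6 organoids 3 rose and 1 fell. The shares that rose, 9.09% in the lines, 31.8% in RAG2KO and 13.6% in C57Bl6 organoids, stand beside 6.77%, 16.0% and 9.50% of all tested genes, so those in the lines and in C57Bl6 organoids were near the share of all genes. Irf9, the DNA-binding part of the complex, was at 75.1 and 13.5 CPM in the constitutive and inducible lines, 18.0, 55.5 and 42.3 CPM in RAG2KO, 14.8, 12.7 and 11.1 CPM in C57Bl6 and 7.15, 9.77 and 10 CPM in naive libraries. RAG2KO replicate 1 was the lowest of its group here too, and still above all C57Bl6 libraries. Irf9 rose by 2.10 in RAG2KO against naive (SE 0.35, adjusted p = 0.00302) and by 1.59 against C57Bl6 (SE 0.35, adjusted p = 0.0120). In the lines it was at 1.82 (SE 0.38, adjusted p = 0.0183), at 0.59 without the constitutive and 3.06 without the inducible line; the call ended without the constitutive line (0.538) and without naive replicate 2 or 3 (0.0588 and 0.0561).

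Irf7, which amplifies interferon production, was at 26.6 and 2.74 CPM in the constitutive and inducible lines, 5.73, 22.2 and 18.6 CPM in RAG2KO, 3.77, 6.84 and 5.45 CPM in C57Bl6 and 2.64, 3.16 and 4.72 CPM in naive libraries. It rose by 2.14 in RAG2KO against naive (SE 0.47, adjusted p = 0.00912), with RAG2KO replicate 1 inside the C57Bl6 range. Stat2 was not called against naive in any group. The receptor chain Ifnar2 rose in both tumour-derived groups, by 1.68 in RAG2KO (SE 0.36, adjusted p = 0.00806) and by 1.94 in C57Bl6 (SE 0.36, adjusted p = 0.00614), while the chain Ifnar1 was at 0.19 (SE 0.15, adjusted p = 0.355) and 0.26 (SE 0.15, adjusted p = 0.265) in the same comparisons. The RNA sensor Ddx58 (RIG-I) rose in RAG2KO by 1.51 against naive (SE 0.29, adjusted p = 0.00530) and by 1.44 against C57Bl6 (SE 0.29, adjusted p = 0.00877). With the Rn45s share as a covariate the RAG2KO calls of Irf9, Irf7, Ifnar2 and Ddx58 against naive ended.

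Of 25 tested genes on a list of other interferon-induced genes, 4 rose and 0 fell in the lines against naive (1 was lower at an unadjusted p under 0.05 in the edgeR test), 10 rose and 1 fell in RAG2KO, and 4 rose and 1 fell in C57Bl6 organoids. The shares that rose were 16%, 40% and 16% in that order, beside 6.77%, 16.0% and 9.50% of all tested genes. Lgals9 (galectin-9) was at 85.1 and 9.79 CPM in the constitutive and inducible lines, 36.9, 44.1 and 53.3 CPM in RAG2KO, 45.3, 24.3 and 36.3 CPM in C57Bl6 and 3.86, 3.64 and 3.29 CPM in naive libraries. Every library outside the naive group was well above it, and the log2 fold changes were 3.01 in the lines (SE 0.26, adjusted p = 0.000591; 1.45 without the constitutive line, where the call ended at 0.0728, and 4.57 without the inducible line), 3.64 in RAG2KO (SE 0.25, adjusted p = 3.45e-05) and 3.30 in C57Bl6 (SE 0.25, adjusted p = 4.64e-05). Ifi27, listed as Ifi27l1, differed between the tumour-derived groups, at 17.1, 66.6 and 50.5 CPM in RAG2KO and 5.92, 5.05 and 2.47 CPM in C57Bl6 libraries (3.32, SE 0.50, adjusted p = 0.00376).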

How the data were processed

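Per the labels' protocols, RNA of the 11 samples came from the Ambion PureLink RNA kit, and poly(A)-selected libraries from the NEBNext Ultra II Directional kit. Bowtie, RSEM and the mm9 build are named in the submitters' processing notes; neither versions nor the annotation is given in the sources used here. The authors deposited expected counts per gene name, which were rounded to whole numbers. Library totals were 14109182 to 22154456, at which 3 counts, the floor used for a group at 0, are 0.131 to 0.214 CPM. CPM used library totals scaled by TMM. Of the 23224 names, 25 are dates from a spreadsheet and were kept as listed. Reads shared by similar genes are divided by an estimate: 28 of the 38 genes had a value that was not whole (tolerance 0.001) in some library, against 51.1% of all names.

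Genes were filtered with filterByExpr (minimum count 10), which left 13720, and TMM factors were computed on these. One quasi-likelihood model with robust estimation (edgeR 4.0.16, R 4.3.3) covered the 11 libraries as 5 groups, leaving 6 residual degrees of freedom; its common dispersion was 0.0641. Tests were two-sided, p-values were adjusted by Benjamini-Hochberg over all tested genes, and calls were made under 0.05. Standard errors were obtained from each log2 fold change and its F statistic. A single SOX17OE line had no test of its own; differences of more than 2-fold in log2 CPM with a prior count of 2 were counted. Ratios of low counts have exact 95% counting intervals. The scripts were tested on simulated counts.

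Groups follow the recipient mice and titles in the labels. Replicate numbers recur across groups, but same-numbered libraries deviated from their group means with correlations of -0.192 to 0.181, so the numbers were not taken to pair libraries. The alternatives were DESeq2 1.42.0 and its size factors, limma 3.58.1 (voom), upper-quartile scaling, other filters, only the groups compared, an Rn45s covariate, a replicate block and leaving out each library. The 38 genes, the other lists and the alternatives were chosen with earlier results of these data known. Of the 38 genes, those called in at least 1 of the 6 comparisons are given library by library. The others are given by range, by counts for Sp100, or by library for Ifit1, Rsad2 and Zc3hav1, chosen after their values were seen. Of genes outside the 38, main parts of the signal path could be named. So could, from each list, those among the first 4 called by adjusted p in a comparison. Promoter sequences are from RefSeq tables on GRCm38.p6, another build than that of the counts, and are joined to the counts by gene symbol. Some genes of the lists are counted but not reported here by name.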

Additional observations from a re-analysis of the deposited data

Results flagged for a closer look

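For 13 of the 38 genes the log2 change from naive was higher in RAG2KO than in C57Bl6 tumour-derived organoids. This was by the test of that difference in edgeR's quasi-likelihood model, where 11.8% of all tested genes were higher. Because both changes use the same naive libraries, the difference is that of RAG2KO against C57Bl6 organoids directly. On the log2 scale it was 4.31 for Ifi44, 3.48 for Usp18, 3.48 for Rtp4, 2.19 for Oas2, 2.12 for Oas1g, 2.11 for Oas1a, 1.91 for Isg15, 1.66 for Oasl2, 1.61 for Cmpk2, 1.33 for Uba7, 1.22 for Trim21, 1.02 for Parp9 and 0.55 for Eif2ak2. Cmpk2, Trim21 and Ifi44 lay above naive in RAG2KO (0.54, 0.89 and 2.30) and below it in C57Bl6 organoids (-1.07, -0.34 and -2.01). Of these values against naive, that of Trim21 in RAG2KO alone was called. Ifi44 and Oas2 passed the count filter through RAG2KO and constitutive libraries alone. Over the RAG2KO and C57Bl6 libraries Ifi44 had 41 and 2 counts, and Oas2 had 41 and 10. Of the 13 calls, 7 were kept in each fit that left out 1 library. The other 6, Ifi44 and Oas2 among them, were lost in some. The Rn45s share was higher in every RAG2KO than in every C57Bl6 library, and the 2 cannot be told apart.

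The SOX17OE lines lay on opposite sides of the naive libraries for 9 genes, with the constitutive line above every naive library and the inducible line below every one, against 4.31% of all tested genes. The log2 difference between the lines was 4.72 for Ifi44, 4.01 for Oasl2, 3.80 for Zbp1, 3.34 for Ifit1, 2.81 for Samd9l, 2.54 for Oas3, 2.24 for Ifit3, 1.72 for Rsad2 and 1.19 for Ifit2. Each line is 1 library, so these differences were not tested. Zbp1, Ifit3 and Ifi44 were at 1 count in the inducible line. Of these, Ifit3 and Ifi44 passed the count filter through RAG2KO and constitutive libraries alone.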

How the results depend on the processing

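None of the genes among the 38 that were called against naive in RAG2KO or C57Bl6 organoids changed direction in the alternatives run for it, but counts of calls did change. These were 20 alternatives, except 17 for Ifit3 and Oas2 and 18 for Mx2 in RAG2KO organoids, where stricter filters or smaller fits left the gene out; the SOX17OE comparisons had at most 19, with no replicate block. For C57Bl6 against naive, 8 genes higher became 5 with the Rn45s covariate and 4 to 11 when 1 library was left out, and 0 lower became 1 with DESeq2's Wald test and 1 with voom. For RAG2KO against naive, 25 higher became 3 with the Rn45s covariate and 18 to 26 when 1 library was left out. For RAG2KO against C57Bl6, 13 higher became 23 with DESeq2's Wald test, 0 with the Rn45s covariate (3 at an unadjusted p under 0.05) and 7 to 24 when 1 library was left out. For the SOX17OE lines against naive, 15 higher became 7 with only the groups compared, 4 with the Rn45s covariate and 1 to 23 when 1 library was left out. Against C57Bl6 organoids the lines had 8 higher, which became 13 with voom, 2 with only the groups compared, 1 with the covariate and 1 to 18 when 1 library was left out, and 1 lower, which became 0 with upper-quartile scaling, 0 with only the groups compared, 0 with the covariate and 0 to 1 when 1 library was left out. Against RAG2KO organoids 1 higher became 0 with only the groups compared, 0 with the covariate (2 at an unadjusted p under 0.05 in each) and 0 to 1 when 1 library was left out, and 4 lower became 2 with voom, 0 with only the groups compared, 0 with the covariate (4 and 7 unadjusted) and 0 to 5 when 1 library was left out. Fits of only the groups compared hold fewer samples, and for the SOX17OE comparisons they also join the 2 lines into 1 group. The gap between the lines then counts as spread, which it does not in the full fit, where each line is its own group. Shares of all tested genes called higher also changed. With the Rn45s covariate 9.50% became 7.03% for C57Bl6 and 16.0% became 0.955% for RAG2KO against naive, and 11.8% became 0.00729% between them. In that order, leaving out 1 library gave 4.88 to 10.7%, 8.71 to 16.8% and 6.69 to 11.9%. For the SOX17OE lines against naive 6.77% became 1.12% with the covariate and 4.82% with only the groups compared. The cause of these and the other changes in the counts was not tested.

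Among values called in the full fit or under the alternative, 6 changed sign, each without 1 of the lines. Values called in neither are not among these 6, and more of them changed sign: without the constitutive and then without the inducible line, the median log2 fold change over the 38 genes was -0.42 and 1.35 for the lines against C57Bl6 organoids, -1.51 and 0.60 against RAG2KO organoids and 0.12 and 1.96 against naive. For the SOX17OE lines against naive, Oas1a was at -0.07 without the constitutive and 4.55 without the inducible line, and Oasl2 at -0.33 and 3.80 in the same order. Against C57Bl6 organoids, again without the constitutive and then without the inducible line, Oas1a was at -1.01 and 3.61, Oasl2 at -0.58 and 3.55, Ddx58 at -0.03 and 2.07 and Lgals9 at -1.85 and 1.27. Of the results for single genes among the 38, 702 kept their side of the threshold for C57Bl6 against naive, 691 for RAG2KO against naive and 645 for RAG2KO against C57Bl6, while 21, 47 and 53 lost a call and 21, 7 and 47 gained one.

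With the replicate number as a block, 23 genes were called higher for RAG2KO against naive, 9 for C57Bl6 against naive and 11 for RAG2KO against C57Bl6, and 0 lower in each. Same-numbered libraries did not deviate together (-0.192 to 0.181), so the numbers were not read as pairs. For the SOX17OE lines no paired analysis was possible because the lines carry no replicate number. Depth limits Oas2, Ifi44, Sp100, Ifit3, Mx2 and Zbp1, which had few counts in naive libraries.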
